A study of Mus musculus with 4 samples.

Results

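Cxcr6+ NKT-like liver T cells were 930 of the 15020 barcodes kept in the 4 libraries (15383 barcodes before filtering). Members were chosen by their measured UMI counts, so the genes of the rule are a description here and no finding. A member was a barcode with at least 500 UMIs (unique molecular identifiers, each standing for 1 counted RNA molecule), at least 200 genes and at most 20% of UMIs from mitochondrial genes. It had at least 1 UMI of the CD3 genes Cd3d, Cd3e or Cd3g and at least 1 of the chemokine receptor gene Cxcr6. It had 0 UMIs of Cd8b1 and Lef1 (CD8 and naive T cells), Dapl1, Ncr1 (NK cells), Cd79a (B cells) and Siglech (plasmacytoid dendritic cells). Fewer than 3 of 7 cell cycle genes and fewer than 2 of 6 Kupffer cell genes were detected. The written rule can also be read as asking for any of the 4 genes Cd3d, Cd3e, Cd3g and Cxcr6. Because the cells are named Cxcr6+, a UMI of Cxcr6 was required here. The other reading was run as an alternative.

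The exercise group (2 libraries) came from adult wild-type C57BL/6 mice trained by motorized treadmill running (speed 12.5 m/min), and the sedentary group (2 libraries) from such mice kept on a treadmill that stood still. Both groups had 60 min a day on 5 days a week for 4 weeks. All libraries held hepatic CD45+ leukocytes, taken from collagenase-digested livers with magnetic beads and captured with a 10x Genomics 3′ kit, and no group carried a transgene or a deletion. Serum alanine aminotransferase, an enzyme that injured hepatocytes release, measured 26 U/L for exercise replicate 1 and 59 U/L for exercise replicate 2, against 33 U/L for sedentary replicate 1 and 56 U/L for sedentary replicate 2. The labels do not say whether a library was made from 1 animal or several, so every p measures the spread between these samples.

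Natural killer T (NKT) cells are T cells with receptors that recognise lipids presented by CD1d. They carry NK cell receptors beside CD3, depend on the transcription factor PLZF (encoded by Zbtb16) and release cytokines such as IL-4 and interferon gamma within hours of a stimulus. In the mouse liver they are abundant, patrol the sinusoids and are held there through CXCR6, whose ligand CXCL16 is displayed by sinusoidal endothelial cells. Conventional memory T cells that settle in the liver can also carry CXCR6, so the receptor alone does not define NKT cells.

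The members were 201 and 233 cells in exercise replicates 1 and 2, against 233 and 263 cells in sedentary replicates 1 and 2. Their UMIs summed to 611120 and 707428 in the exercise libraries, against 570941 and 710144 in the sedentary libraries. Median depth was 2932 and 2892 UMIs per cell in exercise, against 2366 and 2526 in sedentary, so the groups did not overlap in depth. The median mitochondrial share was 2.76% and 2.64% in exercise, against 3.05% and 2.65% in sedentary. Between pairs of libraries 11 to 31 barcodes were shared, and 2 of the shared barcodes were NKT-like in both libraries of their pair. Sedentary replicate 1 stood apart in hepatocyte RNA: 46.4% of its NKT-like cells held at least 1 UMI of a 12-gene hepatocyte list, against 18.3% in sedentary replicate 2, while the exercise libraries had 4.98% and 6.01%.

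**Figure D1:**
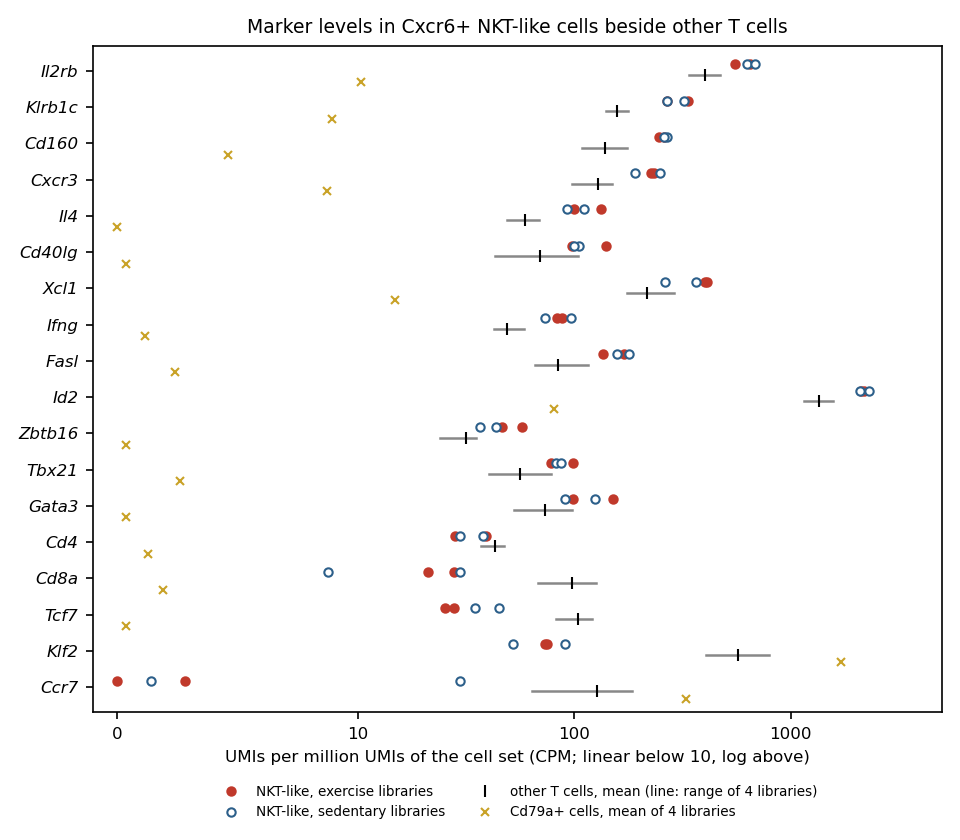
Levels of marker genes, as UMIs per 1000000 UMIs of the cell set (CPM; x axis linear below 10 and logarithmic above), in each library of NKT-like cells, in other T cells and in Cd79a+ cells. Il2rb, Klrb1c, Il4, Xcl1 and Fasl lie to the right in NKT-like cells and Tcf7, Klf2 and Ccr7 lie to the left, with exercise and sedentary points intermixed for most genes.

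The genes that mark the name were present beside those used by the rule. Il2rb, the beta chain of the IL-2 and IL-15 receptors, had 551 and 646 CPM (UMIs of the gene per 1000000 UMIs of the NKT-like cells of a library) in exercise, against 631 and 686 CPM in sedentary. It was detected in 76.3% ± 2.75 of NKT-like cells (SD over 4 libraries), against 54.6% ± 8.28 of other CD3+ T cells and 1.55% ± 0.627 of Cd79a+ B cells, which should lack it. Il4, the type 2 cytokine that NKT cells release, had 133 and 100 CPM in exercise, against 92.8 and 111 CPM in sedentary, and a UMI in 25.7% ± 4.10 of cells, against 14.6% ± 2.33 of other T cells. No Cd79a+ cell had an Il4 UMI (0 of 947 cells). Cd40lg, the ligand by which T cells engage CD40, was found in 24.6% ± 4.82 of NKT-like cells, against 16.9% ± 7.69 of other T cells and 0.0625% ± 0.125 of Cd79a+ cells. Cd79a+ cells were shallower, with medians of 1739 and 1608 UMIs in exercise and 1408 and 1438 in sedentary. After each cell was thinned to 1000 UMIs the mean shares in NKT-like cells were 45.0% for Il2rb, 8.98% for Il4 and 10.1% for Cd40lg, against 1.17%, 0% and 0.0667% in Cd79a+ cells.

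NK receptor genes and lineage factors gave a mixed picture. Klrb1c, which encodes NK1.1, had 337 and 269 CPM in exercise, against 322 and 268 CPM in sedentary, and a UMI in 50.8% ± 6.44 of cells, against 1.11% ± 0.418 of Cd79a+ cells (26.2% and 0.810% after thinning). With the cells of all libraries pooled, Klrb1c was detected in 50.3% of NKT-like cells and 28.2% of other T cells. Zbtb16 was sparse, with 57.3 and 46.6 CPM in exercise, against 36.8 and 43.7 CPM in sedentary, and a UMI in 11.4% ± 1.96 of cells. It was found in 8.27% ± 1.61 of other T cells and in 0.0625% ± 0.125 of Cd79a+ cells. After thinning, Zbtb16 was found in 5.19% of NKT-like cells, 2.48% of other T cells and 0.0667% of Cd79a+ cells. T-bet (Tbx21), the factor of type 1 responses, was detected in 21.2% ± 3.38 and Gata3, the factor of type 2 responses, in 27.2% ± 7.10 of NKT-like cells. The T cell receptor chains that define invariant NKT cells were not analysed here, so the name rests on these markers and on the absence of others.

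Markers of other cells ranged from 0 to readily detected. Foxp3, the factor of regulatory T cells, had a UMI in 1 cell in all, Eomes in 3 cells, and the NK genes Klra4, Klra8 and Itga2 in none. A 5-gene list of regulatory T cells still summed to 262 and 287 CPM in exercise, against 317 and 293 CPM in sedentary. In other T cells that list summed to 260 and 267 CPM in exercise, against 194 and 249 CPM in sedentary, below the NKT-like cells of the same library each time. The whole 11-gene NK and ILC1 list summed to 898 and 1708 CPM in exercise, against 1135 and 949 CPM in sedentary. In other T cells it summed to 1152 and 1734 CPM in exercise, against 1301 and 1578 CPM in sedentary, above the NKT-like cells of the same library each time. Of its detected genes, Klre1 had a UMI in 18.9% and Tyrobp in 40.6% of NKT-like cells. Cd4 was detected in 9.18% ± 2.06 and Cd8a in 2.67% ± 0.947 of NKT-like cells. The 12-gene Kupffer list, of which the rule had already limited 6 genes, summed to 1222 and 1032 CPM in exercise, against 974 and 1029 CPM in sedentary. An 8-gene list of conventional dendritic cells summed to 1116 and 1221 CPM in exercise, against 779 and 2591 CPM in sedentary, and a 7-gene neutrophil list to 214 and 154 CPM, against 254 and 313 CPM. Mmp9 alone gave 193 and 110 CPM of that neutrophil sum in exercise, against 114 and 114 CPM in sedentary.

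The other T cells were 1011 CD3+ barcodes that met the Kupffer, cycling, Ncr1, Cd79a and Siglech limits but lacked Cxcr6 or had Cd8b1, Lef1 or Dapl1. They numbered 202 and 244 in exercise, against 306 and 259 in sedentary, and part of them were Cxcr6+. Among Cxcr6+ CD3+ barcodes the Cd8b1 limit removed 7 and 11 in exercise, against 20 and 14 in sedentary. The Lef1 limit then removed 83 and 86, against 87 and 64. Those without Ncr1, Cd79a and Siglech UMIs counted as other T cells. Because the rule separates NKT-like and other T cells by expression, their comparison is a description with no test. Klrb1c, Cd160, Fasl, Cxcr3, Xcl1 and Mmp9 were higher in NKT-like cells in each of the 4 libraries, while the NK receptor gene Klrd1 was detected in 38.4% of NKT-like and 38.8% of other T cells. Klrb1c averaged 299 CPM (268 to 337 over libraries), against 158 CPM (141 to 177) in other T cells. Cd160, a receptor of cytotoxic lymphocytes, averaged 259 CPM, against 140 CPM, and Fasl, the death ligand, 161 CPM against 84.2 CPM. Cxcr3, the receptor for interferon-induced chemokines, averaged 225 CPM against 129 CPM, and Xcl1, the chemokine for cross-presenting dendritic cells, 361 CPM against 218 CPM. Mmp9, a gelatinase better known from neutrophils, averaged 133 CPM in NKT-like cells, against 62.2 CPM in other T cells, and was detected in 26.0% and 13.5% of cells.

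Klf2, Ccr7 and Tcf7, genes of recirculating and naive T cells, were lower in NKT-like cells in each library. Klf2, the factor that drives exit from tissue, averaged 73.0 CPM (52.1 to 91.1), against 570 CPM (407 to 791) in other T cells. Ccr7, the lymph node homing receptor, averaged 8.50 CPM, against 128 CPM, and Tcf7 33.3 CPM, against 104 CPM. Of the 6 NKT-like cells with a Ccr7 UMI, 1 held 26 UMIs of Fscn1 and 13 of Cxcl16, genes of mature dendritic cells. Other T cells also carried more RNA of other lineages. Their neutrophil list summed to 793 to 1640 CPM, against 154 to 313 CPM in NKT-like cells, and their endothelial list to 344 to 659 CPM, against 56.0 to 192 CPM. The part of such RNA in these differences was not tested.

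Values just inside and just outside the rule are given with no test. In exercise replicate 1 the 48 cells with 1 Cxcr6 UMI had 256 CPM of Klrb1c and the 106 cells with 3 or more had 372 CPM, while the 65 cells with 0 Cxcr6 UMIs that met every other limit had 174 CPM. Klf2 over the 4 libraries was at 73.0 to 183 CPM in cells with 1 Cxcr6 UMI, 33.3 to 90.8 CPM in cells with 3 or more and 276 to 523 CPM in cells with 0. In sedentary replicate 1 the 77 cells with 1 Cxcr6 UMI had 375 CPM of Klrb1c, the 104 cells with 3 or more had 308 CPM and the 97 cells with 0 had 204 CPM. Over the 4 libraries Il4 was at 42.1 to 61.3 CPM in cells just outside the rule and at 80.4 to 142 CPM in cells with 1 Cxcr6 UMI, so no library of the first set reached the second. Only 19 kept barcodes had Cxcr6 without a CD3 UMI and met the other limits.

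By the rule used here, the share of NKT-like cells did not differ beyond the spread between replicates. They made up 6.89% (95% Clopper-Pearson interval 6.00 to 7.87, counting error only) and 5.52% (4.85 to 6.25) of kept barcodes in exercise replicates 1 and 2. In sedentary replicates 1 and 2 they made up 5.79% (5.09 to 6.55) and 6.82% (6.04 to 7.66). The means were 6.21% ± 0.969 in exercise and 6.30% ± 0.731 in sedentary (SD, n = 2 each), a difference of -0.0986 percentage points (two-sided exact permutation test, p = 1). Of CD3+ barcodes they were 23.8% ± 2.10 in exercise and 25.0% ± 1.27 in sedentary (exact permutation p = 0.667). By the other reading of the rule the CD3+ share was 33.5% and 32.1% in exercise, against 34.2% and 35.9% in sedentary, which did not overlap (difference -2.20 points, exact permutation p = 0.33). With 2 libraries a side this test cannot give a p below 0.33. The sign is not fixed: with every barcode thinned to 1000 UMIs before the rule was applied the differences were 1.16 points of kept and 4.81 points of CD3+ barcodes (exact permutation p = 0.67 and 0.33). Losses of CD3+ barcodes were counted limit by limit, with the Kupffer limit first, so each count depends on this order. Most fell at the Kupffer limit (317 and 482 in exercise, against 264 and 364 in sedentary) or had no Cxcr6 UMI (161 and 196, against 314 and 262). Among those left with CD3 and Cxcr6, the Lef1 limit removed 83 and 86 in exercise, against 87 and 64 in sedentary.

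NKT-like cells were not uniform. A small set of 47 cells held a UMI of Gzma, the gene of granzyme A, a protease of killer cells: 10 and 17 cells in exercise, against 11 and 9 cells in sedentary. This and the following splits were chosen after values were seen and carry no test. Gzma+ cells had 22011 CPM of Ccl5 (14785 to 29424 over libraries), against 4288 CPM (3793 to 5130) in the 883 Gzma- cells. Gzmb was at 2979 CPM in Gzma+ cells, against 350 CPM in Gzma- cells, and Cd7 at 2970 CPM, against 297 CPM. The signalling adaptors of NK receptors followed, with Fcer1g at 2188 CPM against 234 CPM and Tyrobp at 1832 CPM against 267 CPM. Cd8a was at 225 CPM (43.9 to 303) in Gzma+ cells, against 11.5 CPM (4.54 to 20.4) in Gzma- cells. Il2rb (639 CPM against 629 CPM), Klrb1c (437 CPM against 293 CPM) and Zbtb16 (46.4 CPM against 46.3 CPM) were closer between the sets. Lmo4, a transcriptional cofactor, had 0 UMIs in Gzma+ cells and 121 CPM in Gzma- cells, and Il4 61.3 CPM (0 to 202) against 112 CPM (96.7 to 129).

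**Figure D2:**
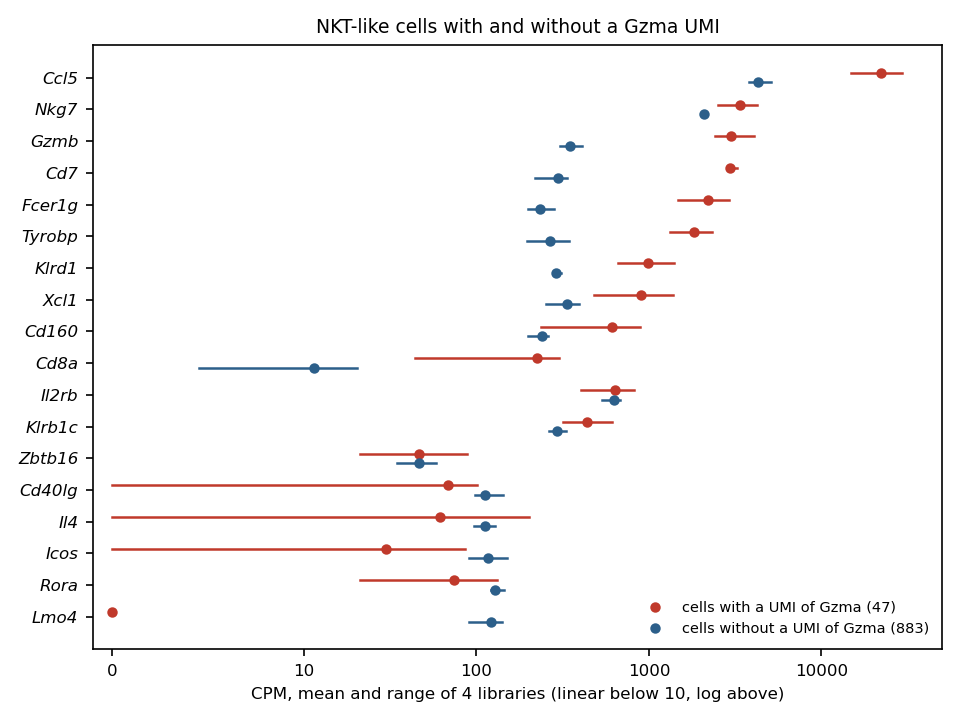
Mean CPM and range over 4 libraries in NKT-like cells with and without a Gzma UMI, for 18 genes (x axis linear below 10 and logarithmic above). Ccl5, Gzmb, Cd7, Fcer1g and Tyrobp are separated between the sets, while the ranges of Il2rb and Zbtb16 overlap.

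Il4 split the cells differently. The 237 cells with an Il4 UMI had 7.68 CPM of Gzma (0 to 25.7), against 465 CPM (143 to 1083) in the 693 cells without, and 0 UMIs of Cd8a, against 30.7 CPM. Il2rb was at 707 CPM (668 to 734) in Il4+ cells, against 597 CPM (497 to 671) in Il4- cells, and Zbtb16 at 42.7 CPM against 46.7 CPM. The cytokines were not exclusive: Ifng had a UMI in 19.0% of Il4+ cells and in 17.7% of Il4- cells. Klrb1c+ and Klrb1c- cells (468 and 462 cells) had Il2rb at 625 CPM against 626 CPM, Cd40lg at 93.6 CPM against 128 CPM, Gzma at 436 CPM against 233 CPM, and Cd4 at 23.5 CPM (19.8 to 26.8) against 45.8 CPM (33.9 to 58.7), whose ranges did not overlap.

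Exercise was set against sedentary to ask which transcripts of these cells differed after the 4 weeks. Counts were summed over the NKT-like cells of a library, and 6033 genes were tested with edgeR's quasi-likelihood test at a Benjamini-Hochberg adjusted p of 0.05. Of these, 11 genes passed (0.182%): 1 was higher in exercise (0.0166%) and 10 were lower (0.166%). An unadjusted p under 0.05 was found for 285 genes (4.72%). The genes that fell included the AP-1 transcription factor genes Fosb and Junb, the activation marker Cd69, the mRNA decay factor Zfp36l2, the redox regulator Txnip and the survival gene Bcl2. NKT identity and effector genes did not pass. The number of calls depended on which cells and which test were used. With the 8 cells marked as doublets left out, edgeR called 0 genes (smallest adjusted p 0.0610, 284 genes at an unadjusted p under 0.05), and among cells with at least 2 Cxcr6 UMIs it called 0 (242 genes at an unadjusted p under 0.05), while DESeq2 on all members called 2. The sign of every called gene that could be fitted was the same under each of the 15 alternatives. In the plot of called genes no exercise library overlaps a sedentary library, as was true of 13.7% of all tested genes toward lower and 19.7% toward higher levels.

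**Figure D3:**
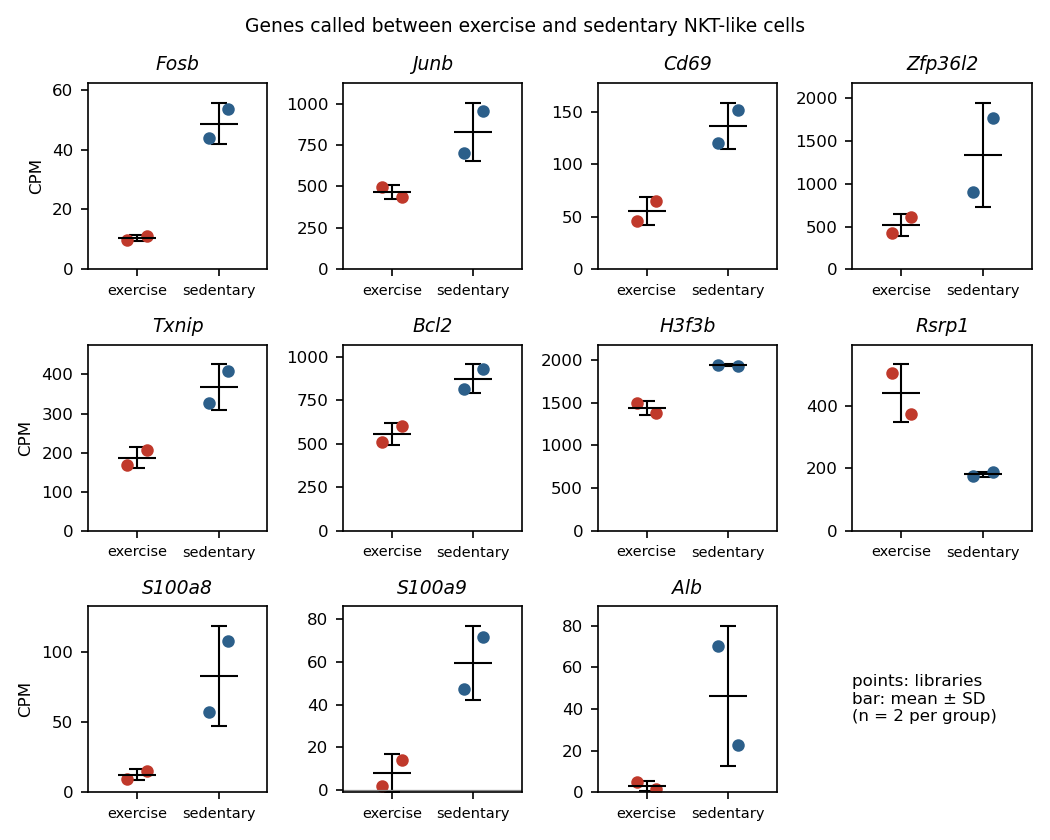
CPM of the 11 called genes in NKT-like cells, with a point for each library and the mean ± SD (n = 2 each), exercise on the left and sedentary on the right. The y axes are linear and contain 0. Rsrp1 is higher in exercise and the other 10 genes are lower.

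Immediate early genes are switched on within minutes of a signal, without new protein synthesis, and many encode AP-1 subunits (Fos and Jun proteins) or enzymes and RNA-binding proteins that end the response. Fosb had 9.82 and 11.3 CPM in exercise, against 43.8 and 53.5 CPM in sedentary. The means were 10.6 ± 1.05 CPM in exercise and 48.7 ± 6.88 CPM in sedentary (SD, n = 2 each), with a log2 change of -2.22 (SE 0.36, edgeR adjusted p = 0.0229). At this level the exercise values rest on few UMIs, and an SD from 2 libraries measures their spread poorly. Junb had 499 and 438 CPM in exercise, against 704 and 952 CPM in sedentary, and a log2 change of -0.85 (SE 0.15, edgeR adjusted p = 0.0236). Zfp36l2, which binds AU-rich elements and promotes decay of short-lived mRNAs, had 427 and 611 CPM in exercise, against 907 and 1769 CPM in sedentary. Its log2 change was -1.40 (SE 0.23, edgeR adjusted p = 0.0229), and sedentary replicate 2 was the highest library. Without that library the log2 change was -0.83, the smallest change over the 15 alternatives. On GRCm38 (GENCODE annotation) Zfp36l2 lies at chr17:84183931-84187947 on the minus strand.

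The promoters of 2 of these AP-1 genes and of 2 other called genes, Txnip and Rsrp1, are shown because the genes moved together or in opposite directions in the same cells. Each is the 250 bases before the RefSeq start on build GRCm38.p6, written 5′ to 3′ on the gene's strand: Fosb at chr7:19310046-19310295 (minus strand), Junb at chr8:84978749-84978998 (minus strand), Txnip at chr3:96557707-96557956 (plus strand) and Rsrp1 at chr4:134923375-134923624 (plus strand). Capitals mark TGACG, the core of the cAMP response element, and CCAAT, the CCAAT box, on either strand.
Fosb: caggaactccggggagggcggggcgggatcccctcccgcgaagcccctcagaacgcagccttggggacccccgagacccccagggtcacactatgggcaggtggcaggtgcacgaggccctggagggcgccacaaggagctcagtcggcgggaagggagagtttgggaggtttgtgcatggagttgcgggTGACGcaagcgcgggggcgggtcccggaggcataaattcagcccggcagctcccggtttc
Junb: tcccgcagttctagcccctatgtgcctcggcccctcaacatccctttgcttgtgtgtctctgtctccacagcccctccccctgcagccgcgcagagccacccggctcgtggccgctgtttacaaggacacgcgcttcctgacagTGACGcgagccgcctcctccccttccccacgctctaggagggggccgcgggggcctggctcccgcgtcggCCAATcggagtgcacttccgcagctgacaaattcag
Txnip: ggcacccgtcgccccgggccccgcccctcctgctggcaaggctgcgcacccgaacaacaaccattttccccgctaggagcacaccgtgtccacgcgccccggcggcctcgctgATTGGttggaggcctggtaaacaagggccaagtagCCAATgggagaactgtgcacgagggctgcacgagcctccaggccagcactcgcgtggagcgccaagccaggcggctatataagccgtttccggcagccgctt
Rsrp1: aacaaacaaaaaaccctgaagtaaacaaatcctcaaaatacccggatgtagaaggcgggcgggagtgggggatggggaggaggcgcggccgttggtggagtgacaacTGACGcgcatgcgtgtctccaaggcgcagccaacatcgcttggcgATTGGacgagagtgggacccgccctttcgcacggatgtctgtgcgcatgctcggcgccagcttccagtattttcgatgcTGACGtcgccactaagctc
TGACG stood in 1 place in the Fosb and Junb windows, in 2 in that of Rsrp1 and in none in that of Txnip. CCAAT stood in 1 place for Junb, 2 for Txnip, 1 for Rsrp1 and none for Fosb. Of all 32851 RefSeq promoter windows of this length, 17.8% held TGACG and 33.8% held CCAAT on either strand. Of the 11 called genes 9 were in the promoter table, and 5 of them held TGACG (Bcl2, Fosb, H3f3b, Junb and Rsrp1), genes of both directions among them. Of the 21 tested immediate early genes 17 were in the table, 9 with TGACG. A gene was counted if any of its windows held the motif, whereas the shares of all windows are per window. The whole element TGACGTCA, which contains TGACG, stood in 3 of the 17 (Btg2, Dusp1 and Ppp1r15a) and in 1.55% of all windows. The AP-1 site TGACTCA stood in 1 of the 17 (Csrnp1) and in 4.46% of all windows. A match is a description of letters, not a binding site. Cd69 and Zfp36l2 were not matched.

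As a list, 21 of 24 immediate early and AP-1 genes were tested. In exercise 3 of them fell (Fosb, Junb and Zfp36l2) and 0 rose, against 0.166% and 0.0166% of all tested genes. The log2 change was below 0 for 19 of the 21, with a median of -0.51, whereas 50.5% of all tested genes were below 0, with a median of -0.003. Several that did not pass lay close to the threshold. Dusp2, a phosphatase that inactivates MAP kinases, had 183 and 447 CPM in exercise, against 622 and 1250 CPM in sedentary (log2 change -1.59, SE 0.31, edgeR adjusted p = 0.0555). Fos had 32.7 and 69.3 CPM in exercise, against 119 and 134 CPM in sedentary (log2 change -1.31, SE 0.27, edgeR adjusted p = 0.0648). Neither gene overlapped between groups, as was true of 13.7% of all tested genes toward lower levels. Dusp1 (log2 change -1.02, edgeR adjusted p = 0.106), Egr1 (-0.83, 0.347) and Ier2 (-0.47, 0.895) were farther from it. Jund and Ier5, with 0.01 and 0.17, were the members above 0. The summed list had 5094 and 5031 CPM in NKT-like cells in exercise, against 6409 and 9383 CPM in sedentary. Other T cells had 4427 and 4572 CPM in exercise, against 5861 and 8025 CPM in sedentary. Over all kept barcodes it had 4879 and 4932 CPM, against 5964 and 8040 CPM, so the lower level was not particular to NKT-like cells.

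The list was run again without each library. Without sedentary replicate 1, the library with the most hepatocyte RNA, 21 of 22 genes were below 0 (median -0.81). Without sedentary replicate 2, 18 of 21 were below 0 (median -0.51). Without exercise replicate 1 it was 21 of 23 (median -0.59), and without exercise replicate 2 it was 19 of 21 (median -0.58). Among cells with no hepatocyte UMI 0 of 21 passed and 20 were below 0 (median -0.57). In that setting 2 of all 5586 tested genes passed. With doublets removed, and in cells with at least 2 Cxcr6 UMIs, 0 of 21 passed as well. Of these 19 and 20 were below 0, with medians of -0.57 and -0.63. In these 2 settings 0 of all 5967 and 0 of all 4919 tested genes passed. Among cells with no hepatocyte UMI the log2 change was -2.23 for Fosb (edgeR adjusted p = 0.0670), -0.83 for Junb (0.168) and -1.33 for Cd69 (0.0670).

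**Figure D4:**
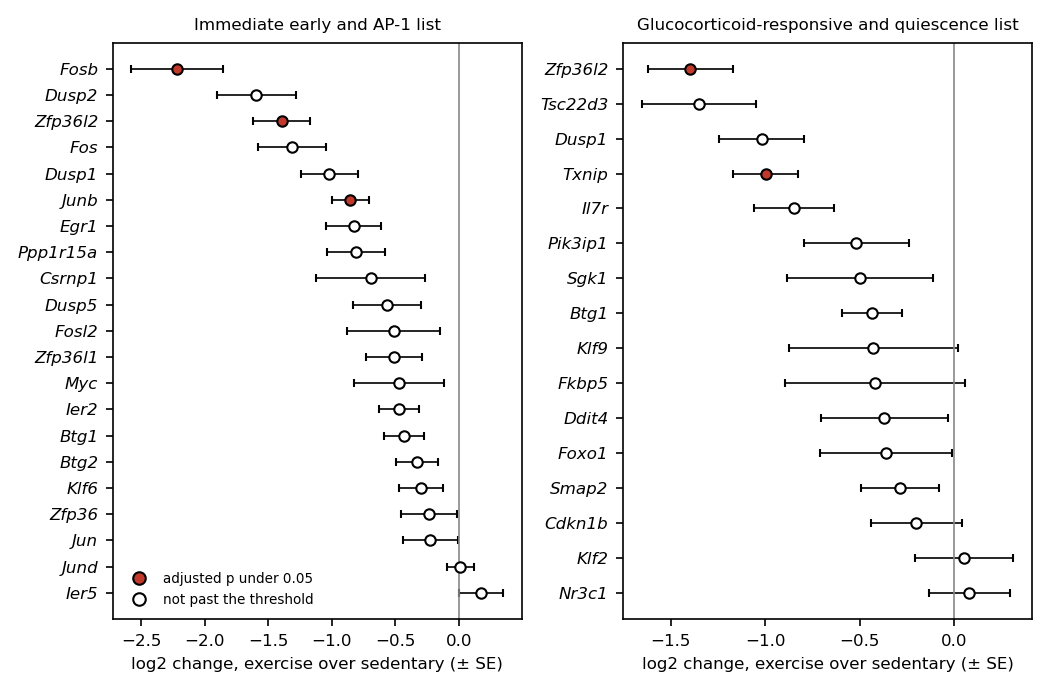
Log2 change (exercise over sedentary, ± SE) in NKT-like cells for the 21 tested immediate early and AP-1 genes and the 16 tested glucocorticoid-responsive and quiescence genes, filled where the edgeR adjusted p was under 0.05. Most points lie left of 0, from -2.22 for Fosb to 0.17 for Ier5. Zfp36l2, Dusp1 and Btg1 are in both lists.

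Genes that glucocorticoids induce or that resting lymphocytes keep high overlapped with that list in Zfp36l2, Dusp1 and Btg1. Of 20 such genes 16 were tested, 2 fell (Zfp36l2 and Txnip) and 0 rose, against 0.166% and 0.0166% of all tested genes. The log2 change was below 0 for 14 of the 16, with a median of -0.43, against 50.5% of all tested genes. The summed list had 2815 and 2827 CPM in NKT-like cells in exercise, against 3552 and 5666 CPM in sedentary. Other T cells had 2857 and 3151 CPM in exercise, against 4430 and 5528 CPM in sedentary. Over all kept barcodes it had 3059 and 2997 CPM, against 3763 and 4903 CPM, so this lower level was not particular to NKT-like cells either. Txnip, which binds thioredoxin and restrains glucose uptake, had 169 and 206 CPM in exercise, against 326 and 408 CPM in sedentary (log2 change -0.998, SE 0.17, edgeR adjusted p = 0.0236). Tsc22d3, which encodes the glucocorticoid-induced leucine zipper GILZ, had 34.4 and 66.4 CPM in exercise, against 91.1 and 162 CPM in sedentary (log2 change -1.35, SE 0.30, edgeR adjusted p = 0.121). Il7r, the IL-7 receptor of resting T cells, had 72.0 and 86.2 CPM in exercise, against 119 and 159 CPM in sedentary (log2 change -0.85, edgeR adjusted p = 0.265). Without sedentary replicate 2, 12 of 16 were below 0 (median -0.25), and without sedentary replicate 1 it was 16 of 18 (median -0.76). Without exercise replicate 1, 14 of 18 were below 0 (median -0.67), and without exercise replicate 2 it was 16 of 18 (median -0.93).

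Of 14 tested residency and trafficking genes only Cd69 passed as lower and 0 as higher (median log2 change 0.04). Among all tested genes 0.166% passed as lower and 0.0166% as higher. An unadjusted edgeR p under 0.05 was found for 4 of the 14, against 4.72% of all tested genes. The groups did not overlap for 5 of the 14 toward lower and 1 toward higher levels, against 13.7% and 19.7% of all tested genes. CD69 is an early activation marker that also keeps T cells in tissue by removing the egress receptor S1PR1 from the surface. The gene lies at chr6:129267325-129275436 (GRCm38, minus strand). Cd69 had 45.8 and 65.0 CPM in exercise, against 121 and 152 CPM in sedentary (log2 change -1.32, SE 0.23, edgeR adjusted p = 0.0236). The chemokine receptors Cxcr3 (226 and 235 CPM in exercise, against 250 and 190 CPM in sedentary) and Ccr2 (295 and 225 CPM, against 264 and 245 CPM) overlapped between groups. Bcl2, which blocks mitochondrial cell death, had 510.5 and 602 CPM in exercise, against 816 and 932 CPM in sedentary (log2 change -0.68, SE 0.13, edgeR adjusted p = 0.0478). H3f3b, a gene for histone H3.3, had 1497 and 1380 CPM in exercise, against 1946 and 1933 CPM in sedentary (log2 change -0.46, SE 0.09, edgeR adjusted p = 0.0478). H3.3 genes have processed copies in the genome, and the sources used here do not give how reads that match several places were counted.

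Rsrp1, the gene of a nuclear protein rich in arginine and serine, was the gene that rose. It had 506 and 375 CPM in exercise, against 175 and 187 CPM in sedentary (log2 change 1.24, SE 0.17, edgeR adjusted p = 0.00730). Among 19 tested SR splicing factors and Clk kinases it was the 1 that passed, against 0.182% of all tested genes, and the list median was 0.03. An unadjusted edgeR p under 0.05 was found for 5 of the 19, against 4.72% of all tested genes. Luc7l3, a splicing factor of the U1 particle, had 86.7 and 112 CPM in exercise, against 42.0 and 60.6 CPM in sedentary (log2 change 0.91, SE 0.24, edgeR adjusted p = 0.410). Srsf5, another SR protein gene, had 283 and 264 CPM in exercise, against 396 and 382 CPM in sedentary (log2 change -0.54, edgeR adjusted p = 0.410). The groups did not overlap for either gene, as was true of 19.7% of all tested genes toward higher and 13.7% toward lower levels.

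Cytokine genes were unequal in their spread. Tnf, the inflammatory cytokine, had 13.1 and 7.07 CPM in exercise, against 31.5 and 52.1 CPM in sedentary (log2 change -2.12, SE 0.42, edgeR adjusted p = 0.0597). These values rest on 8 and 5 UMIs in exercise, against 18 and 37 UMIs in sedentary. Tnfaip3, which encodes A20, the brake on NF-kB signalling, had 26.2 and 36.8 CPM in exercise, against 64.8 and 165 CPM in sedentary (log2 change -1.91, SE 0.37, edgeR adjusted p = 0.0510), and without sedentary replicate 2 its log2 change was -1.05 (edgeR adjusted p = 0.228). Of 13 tested effector genes 0 passed, 9 were above 0 and the median was 0.18. Ifng had 83.5 and 87.6 CPM in exercise, against 73.6 and 97.2 CPM in sedentary, and Ccl5 4755 and 5688 CPM, against 4370 and 5799 CPM, and both overlapped between groups. Xcl1 had 412 and 403 CPM in exercise, against 263 and 365 CPM in sedentary (log2 change 0.34, edgeR adjusted p = 0.983).

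The remaining lists had 0 calls with edgeR. Of 25 tested NKT identity genes 14 were above 0 (median 0.02), and 0 of them had an unadjusted p under 0.05. T cell receptor signalling (25 genes, median -0.03, 1 gene with an unadjusted p under 0.05) and NF-kB genes (19, -0.03, 2) had medians near 0. So did cytokine receptors and their signalling (27, -0.05, 3) and cytotoxic genes (11, -0.01, 3), though single cytotoxic genes ranged from -0.88 to 1.31. Of the activation and checkpoint genes (6, -0.15, 1) 5 were below 0. Heat shock genes (10, -0.01, 1), metabolic enzymes (23, 0.03, 1) and ribosomal proteins (37, -0.02, 3) had medians near 0. Ptpn22, a phosphatase that restrains T cell receptor signalling, was the lowest of its list, with 209 and 239 CPM in exercise, against 324 and 463 CPM in sedentary (log2 change -0.84, edgeR adjusted p = 0.0836). Of 21 interferon-stimulated genes 16 were above 0 (median 0.12, 2 genes with an unadjusted p under 0.05). All 12 tested mitochondrially encoded genes were below 0 (median -0.19, 4 genes with an unadjusted p under 0.05). Without sedentary replicate 1, the library with the highest mitochondrial share, 5 of 12 were below 0 (median 0.03).

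The called genes Alb, S100a8 and S100a9 are best known from other cell types. Alb, the albumin gene of hepatocytes, had 4.91 and 1.41 CPM in exercise, against 70.1 and 22.5 CPM in sedentary (log2 change -3.81, SE 0.70, edgeR adjusted p = 0.0415), from 3 and 1 UMIs in exercise and 40 and 16 UMIs in sedentary. The hepatocyte list summed to 16.4 and 21.2 CPM in NKT-like cells of exercise libraries, against 315 and 107 CPM in sedentary libraries, and over all kept barcodes to 115 and 103 CPM, against 940 and 474 CPM. S100a8 and S100a9 encode the subunits of calprotectin, an abundant protein of neutrophils. S100a8 had 9.82 and 15.5 CPM in exercise, against 57.8 and 108 CPM in sedentary (log2 change -2.73, SE 0.38, edgeR adjusted p = 0.00730). S100a9 had 1.64 and 14.1 CPM in exercise, against 47.3 and 71.8 CPM in sedentary (log2 change -2.86, SE 0.47, edgeR adjusted p = 0.0229). Over the 12 alternatives in which it could be fitted, its log2 change ranged from -5.09 (without exercise replicate 2) to -0.45. Over all kept barcodes the neutrophil list summed to 239 and 587 CPM in exercise, against 1037 and 1165 CPM in sedentary. The part of RNA from other cells or of doublets in the changes of these and of the other called genes was not tested. With the 8 NKT-like cells marked as doublets left out, the log2 change of S100a8 was -1.67 (edgeR adjusted p = 0.440).

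Whether exercise acted differently on NKT-like cells than on other T cells was tested with an interaction term, with the library as a block. Of 6903 genes 11 passed (0.159%). The smallest adjusted p belonged to a neutrophil gene: S100a8 and S100a9 had differences of -2.46 and -2.45 on the log2 scale (NKT-like minus other T). Without exercise replicate 1 these differences were -1.51 and -1.04 and did not pass (edgeR adjusted p = 0.0778 and 0.787). The AP-1 genes that fell in NKT-like cells were not among the 11. In other T cells the log2 change was -1.56 for Fosb (edgeR adjusted p = 0.307) and -1.01 for Junb (edgeR adjusted p = 0.0112), and the difference between the cell sets was -0.62 for Fosb (edgeR adjusted p = 0.977) and 0.17 for Junb (edgeR adjusted p = 0.975). In other T cells alone, 9 of 6486 genes fell (0.139%) and 0 rose. Both cell sets come from the same libraries, and part of the other T cells were Cxcr6+.

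**Figure D5:**
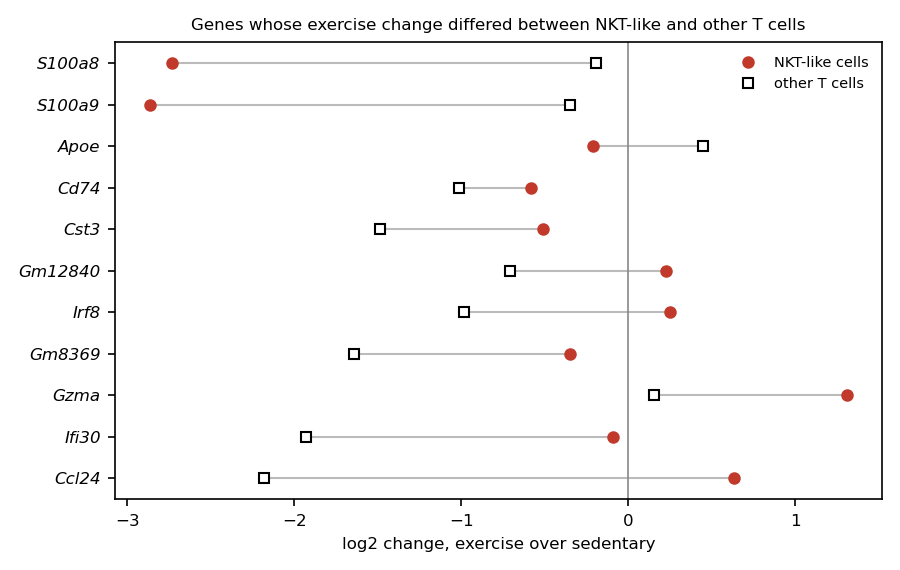
Log2 change (exercise over sedentary) of the 11 genes that passed the interaction test, in NKT-like cells (filled) and other T cells (open). S100a8, S100a9 and Apoe lie farther left in NKT-like cells and the other 8 genes, Gzma among them, farther right.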

How the data were processed

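The deposited files hold raw UMI counts per gene and cell barcode, made by the authors from 10x Genomics 3′ libraries of hepatic CD45+ leukocytes (2 exercise and 2 sedentary libraries). Per the submitters' processing notes, Cell Ranger and Seurat 3.1 were used with mm10 (GRCm38), and per the series' design text reads were aligned to a pre-mRNA reference, so intronic reads can be counted. The Cell Ranger version, the use of strand and the cell calling are not given in the sources used here. The tables list 27998 genes, and the libraries held 10050976, 14849778, 10662091 and 11826183 UMIs (exercise replicates 1 and 2, sedentary replicates 1 and 2).

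A barcode was kept if it had 500 UMIs and 200 genes or more and no more than 20% of its UMIs from mitochondrial genes. Doublets were marked from simulated doublets (30 nearest neighbours, 30 components, an assumed 0.8% per 1000 cells) but stayed in, and their removal was an alternative. Members were chosen by detected genes with no clustering. UMIs were summed per library, filtered with filterByExpr, scaled by TMM and tested with edgeR 4.0.16 (quasi-likelihood F test, Benjamini-Hochberg, adjusted p 0.05; R 4.3.3). DESeq2 1.42.0 was an alternative. The interaction test compared the exercise change of NKT-like cells with that of other T cells, with the library as a block. Shares were compared by exact permutation with scipy 1.17.1. The edgeR steps were tested on simulated data. Intervals cover counting error only.

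Members, gene lists and splits were chosen with earlier results of these data known. Genes were named by a rule: up to 12 called genes a direction by log2 change with a mean of at least 20 CPM and groups that did not overlap, filled up to 5 by the smallest p; up to 4 of each list by the smallest p; all members of the identity, effector and residency lists; up to 3 interaction genes a direction; and 20 genes a direction beside other T cells. Genes named outside it (Fos, Ier2, Jund and Ier5, markers of other cells, the splits and the remaining interaction genes) were chosen after their values were seen. Alternatives changed the scaling, the count filter, the member rule, doublets, depth and liver RNA, or left out a library. Replicate numbers are not said to mark a shared batch, and the deviations of same-numbered libraries were correlated over genes by Pearson's r of 0.12, so they were not used to pair libraries.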

Additional observations from a re-analysis of the deposited data

Results flagged for a closer look

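The 11 genes below differed between NKT-like cells and other T cells in their change with exercise, by the edgeR interaction test with Benjamini-Hochberg adjustment over 6903 genes. Each value is the log2 change of NKT-like cells minus that of other T cells. The libraries are the same for both cell sets.

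S100a8 and S100a9 are neutrophil genes. S100a8 differed by -2.46 (adjusted p = 1.02e-07): its log2 change was -2.73 in NKT-like cells and -0.19 in other T cells. Its level in NKT-like cells was 9.82 and 15.5 CPM in exercise, against 57.8 and 108 CPM in sedentary, while other T cells had 855 and 364 CPM in exercise, against 599 and 723 CPM in sedentary. S100a9 differed by -2.45 (adjusted p = 5.57e-05), and other T cells had 531 and 229 CPM in exercise, against 442 and 476 CPM in sedentary. Without exercise replicate 1 the differences were -1.51 and -1.04 and did not pass (adjusted p = 0.0778 and 0.787). The part of neutrophil RNA in these differences was not tested.

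Gzma, the granzyme A gene, differed by 1.31 (adjusted p = 7.42e-05). NKT-like cells had 193 and 768 CPM in exercise, against 285 and 104 CPM in sedentary, so the groups overlapped. Other T cells had 62.7 and 518 CPM in exercise, against 205 and 302 CPM in sedentary. Without sedentary replicate 2 the difference was 0.42 (adjusted p = 0.865). The change within NKT-like cells did not pass (log2 change 1.31, edgeR adjusted p = 0.932).

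The genes that follow were not called within NKT-like cells. Cst3, the cystatin C gene, differed by 0.94 (adjusted p = 3.31e-05), Cd74, the MHC class II invariant chain, by 0.75 (adjusted p = 0.0246), and Ifi30, a lysosomal thiol reductase gene, by 1.88 (adjusted p = 0.0102). Irf8, a factor of dendritic cells and monocytes, differed by 1.25 (adjusted p = 0.0224). Without exercise replicate 2 these 4 did not pass: Cst3 was at 0.34, Cd74 at 0.02, Ifi30 at 1.14 and Irf8 at 1.08 (adjusted p = 0.998, 0.999, 0.977 and 0.518). Without sedentary replicate 1 Cd74 was at 0.08, Ifi30 at 1.58 and Irf8 at 0.67, and these 3 did not pass. The dendritic cell list summed to 3876 and 1484 CPM in other T cells of exercise libraries, against 4595 and 5345 CPM in sedentary libraries, and its part in these differences was not tested. The chemokine gene Ccl24 differed by 2.90 (adjusted p = 0.0102), and the apolipoprotein gene Apoe by -0.59 (adjusted p = 0.0359). Both turned in sign without 1 library: Ccl24 was at -0.65 without sedentary replicate 2 and Apoe at 0.0028 without exercise replicate 1. Ccl24 did not pass without exercise replicate 1 (2.24, adjusted p = 0.387), nor Apoe without sedentary replicate 2 (-0.42, adjusted p = 0.104). The predicted genes Gm8369 and Gm12840 differed by 1.30 and 0.95 (adjusted p = 0.00261 and 0.00347), and without exercise replicate 2 by 0.98 and 0.62 (adjusted p = 0.569 and 0.753). They did not pass without sedentary replicate 1 either (adjusted p = 0.200 and 0.556).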

How the results depend on the processing

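With 2 libraries a group the number of called genes moved widely around 11, while the sign of each called gene that could be fitted was the same in every alternative. It was 2 with DESeq2, 53 with no filter on low counts, 2 without cells that held a hepatocyte UMI, 17 in cells with at least 1000 UMIs and 500 genes, and 0 both in cells with at least 2 Cxcr6 UMIs and with doublets removed (242 and 284 genes at an unadjusted p under 0.05). Without cells holding a hepatocyte, erythroid or neutrophil UMI, an alternative chosen after seeing the data, it was 23. Leaving out each library gave 25 to 52 calls, where the lone library was assumed to vary like the others. With the replicate number as a block it was 39. The cause of these moves was not tested. With RLE size factors it was 11, with any of the 4 genes detected 9 and with thinned cells 8. The interaction calls ranged from 6 to 27 when a library was left out. There the Ccl24 difference ranged from -0.65 (without sedentary replicate 2) to 4.39 (without sedentary replicate 1), and that of Apoe from -1.21 (without exercise replicate 2) to 0.0028 (without exercise replicate 1). The share difference was 1.16 points of kept and 4.81 points of CD3+ barcodes after thinning, and 1.41 points of CD3+ barcodes with at least 2 Cxcr6 UMIs. Over the alternatives the log2 change of S100a8 ranged from -3.13 to -0.23.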
